A study of Homo sapiens with 2 samples.

Results

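Expression of TSPAN13 and 8 other tetraspanins was examined in L-428 cells, a Hodgkin's lymphoma (HL) cell line that grows in culture, after vector-based knock-down of the phosphatase DUSP5. The 9 genes (TSPAN13, TSPAN3, TSPAN4, TSPAN31, CD9, CD63, CD81, CD82 and CD151) were taken by symbol. They had been chosen by a reading of the log2 ratios of these same arrays, in which TSPAN13 stood out, so that those ratios are given here as a description and without a test. They are represented by 12 of the 22215 probe sets on the array other than controls, and by 9 of the 11963 genes with a probe set of their own.

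The study compared 1 Affymetrix microarray of the human U133 family from cells transfected with the vector pcDNA6.2-GW/EmGFP-miR-DUSP5, which expresses an artificial microRNA against DUSP5, with 1 microarray from cells given pcDNA6.2-GW/EmGFP-miR-neg, the control vector. The paper calls the control vector empty, whereas its name points to a negative-control microRNA. All cells were of the same line and were grown under standard conditions, and no time after transfection is stated for these arrays. Signal intensities had been computed by the authors with the MAS5 algorithm and scaled on each array to the same target intensity, and ratios are given as log2 of knock-down over control. With 1 array per group there is no replicate and no p-value. As a yardstick served the standard deviation (SD) of ratios among probe sets that share a gene, which takes in probe error but not how cultures vary. On the log2 scale it was 1.19 for signals averaging less than 100, 0.73 for those of 100 to 200 and 0.41 for those of 200 to 500. For brighter probe sets it was 0.36 up to 1000, 0.30 up to 3000 and 0.26 beyond. A signal of 1 probe set cannot be set against that of another, since probes differ in brightness.

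Tetraspanins are small proteins that cross the membrane several times and gather other membrane proteins, among them integrins, proteases and immune receptors, into platforms at the cell surface and on endosomes. CD37 and CD53 are tetraspanins of leukocytes. CD63, CD81 and CD9 are widely used as marker proteins of exosomes, the vesicles that cells release from multivesicular endosomes. The arrays measure messenger RNA, and protein at the surface was not measured.

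The identity of the cells was checked by marker genes. All 6 listed genes of HL cell lines (TNFRSF8, which encodes CD30, IRF4, CCL17, FSCN1, TRAF1 and BATF3) reached a mean signal of 200 at 1 or more probe sets. Of 8 probe sets for B cell genes 1 passed this level, that of the transcription factor PAX5 with 268 in control cells and 211 after knock-down, and none passed of 4 for T cell and 5 for myeloid genes. Of 9 probe sets for epithelial and fibroblast genes 1 passed, a COL1A1 probe set of the type _x_at with 213 and 221. DUSP5 itself had a signal intensity of 628 in control cells and 368 after knock-down (log2 ratio -0.77, SD 0.41).

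TSPAN13, also called NET-6, was lower after knock-down of DUSP5 than any other tetraspanin measured at a mean signal of 200 or more. Its only probe set, 217979_at, gave a signal intensity of 3043 in control and 606 in knock-down cells. In RNA from a whole culture, fewer cells that express the gene and less RNA per cell cannot be told apart. The signal after knock-down was thus 19.9% of control, which is 5.02-fold lower, and the log2 ratio was -2.33 (SD at this signal 0.30). It was rank 38 from the lowest among the 10184 probe sets whose mean signal reached 200. When each gene was represented by its probe set of highest mean signal, TSPAN13 was rank 23 from the lowest of 6301 measured genes. Of the 2355 genes whose mean signal reached 1000, 5 had a ratio this low, TSPAN13 included. The gene has no second probe set that could be set beside this value.

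The bases before the start of TSPAN13 are shown because it is the gene with the largest difference. The RefSeq table of assembly GRCh38.p14 holds 1 start for TSPAN13, on chromosome 7 between the genes BZW2 and AGR2, and the 250 bases before it lie at chr7:16753505-16753754 on the plus strand. Capitals mark matches to the octamer (ATGCAAAT), the CCAAT box (CCAAT) and the GC box (GGGCGG), searched on both strands, and no marked match overlaps another.

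TSPAN13: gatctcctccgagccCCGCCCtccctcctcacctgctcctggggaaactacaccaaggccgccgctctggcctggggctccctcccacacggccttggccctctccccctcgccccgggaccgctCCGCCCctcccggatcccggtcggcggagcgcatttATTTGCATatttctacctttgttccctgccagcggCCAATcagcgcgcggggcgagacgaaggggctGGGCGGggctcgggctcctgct

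The octamer, which is bound by POU-domain factors such as OCT1 and OCT2, began 89 bases before the start, on the strand opposite to the gene. The CCAAT box began 54 bases before the start, and GC boxes began 235, 125 and 22 bases before it. Of all 35116 windows of the same length in the table, 1.63% held an octamer, 32% a CCAAT box and 42.6% a GC box. The table held 20 windows for 6 of the 9 tetraspanins. CD63 had 8 of them, TSPAN4 5, CD9 4, and TSPAN13, TSPAN31 and CD82 1 each, so that the 20 are not separate genes. That of TSPAN13 was the only one with an octamer, and a single window is too few to set against the 1.63%. A CCAAT box was found in 4 of the 20 windows and a GC box in 13. An E-box (CACGTG) was found in 2 of the 20, of CD63 and TSPAN4, against 6.34% of all windows. An AP-1 site (TGACTCA) was found in 1, of CD63, against 4.20%. No window of these genes held a TATA box (TATAAA), which 10.7% of all windows did. These are matches of letters and binding was not measured. BZW2, which lies beside TSPAN13, had a signal intensity of 3918 in control cells and 4349 after knock-down (log2 ratio 0.15, SD 0.26).

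**Figure D1:**
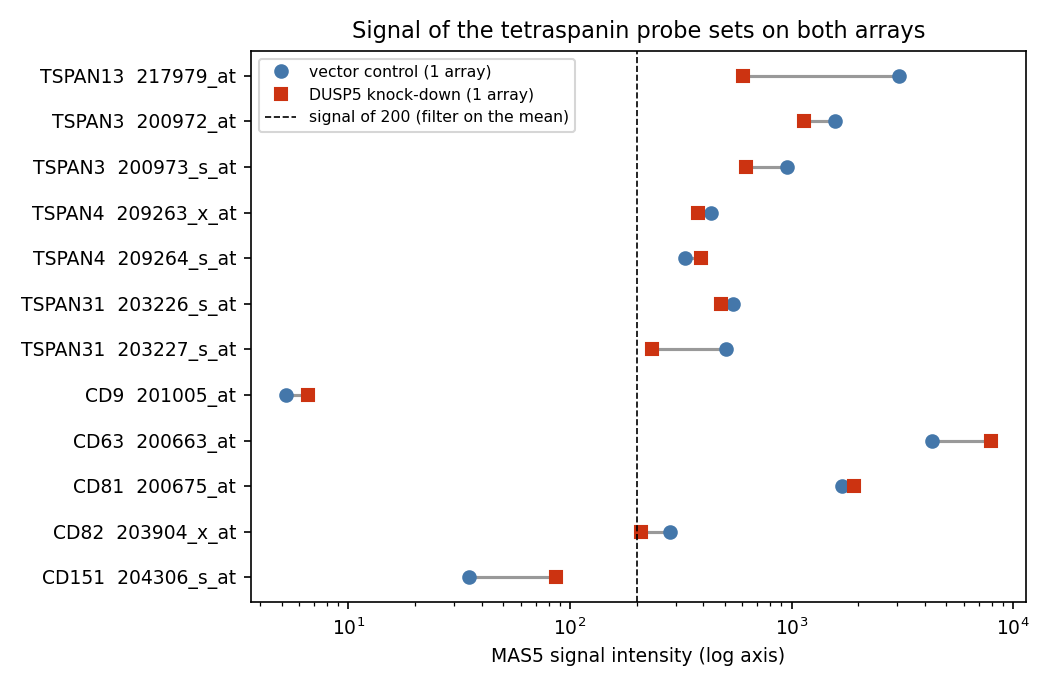
MAS5 signal intensity (log axis) of the 12 probe sets of the 9 tetraspanins on the control array (blue circles) and the knock-down array (red squares), 1 array each. The longest bar between bright points is that of TSPAN13, from 3043 to 606, CD63 lies the other way, from 4303 to 7924, and CD9 and CD151 lie below 200 on both arrays.

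CD63, a protein of late endosomes, lysosomes and exosomes, was higher on the knock-down array. The signal intensity was 4303 in control cells and 7924 after knock-down, 1.84-fold higher, with a log2 ratio of 0.88 (SD 0.26). The log2 ratio of TSPAN13 lay 3.21 below that of CD63. These were the lowest and highest ratios of the 7 measured members, which had been chosen on such ratios, so that the gap is a description only. CD81 had a signal intensity of 1694 in control cells and 1919 after knock-down, a log2 ratio of 0.18 that is smaller than the SD of 0.30. GAPDH, a glycolytic enzyme often taken as reference, was also higher on the knock-down array, its 3 probe sets having log2 ratios of 0.94 to 1.12, and on a scale set by GAPDH, chosen after seeing the data, CD63 had a log2 ratio of -0.095 and CD81 one of -0.80. On this scale the ratio of CD63 was smaller than its SD of 0.26, so that no direction can be given for it there, while TSPAN13 (-3.30) stayed lower.

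TSPAN3, a widely expressed tetraspanin, was lower at each probe set. The signal intensities in control cells and after knock-down were 1572 and 1138 at 200972_at, with a log2 ratio of -0.47 (SD 0.30). At 200973_s_at they were 956 and 624, with a ratio of -0.62 (SD 0.36). Both ratios exceeded 1 SD and they differed from each other by 0.15, less than the SD of such a difference (0.47).

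TSPAN31, first described as a sarcoma-amplified sequence, gave different values at its probe sets, both of the type _s_at. Probe set 203227_s_at had a signal intensity of 505 in control cells and 233 after knock-down, a log2 ratio of -1.11 (SD 0.41), whereas 203226_s_at had 542 and 482, a ratio of -0.17 (SD 0.36). The ratios differed by 0.94 (SD of such a difference 0.55), so that the call of a 2-fold difference rests on 1 of the probe sets. In the RefSeq annotation the span of TSPAN31 overlaps that of the cell cycle kinase gene CDK4, with a signal intensity of 4372 in control and 4011 in knock-down cells (log2 ratio -0.12). Whether the overlap bears on either TSPAN31 probe set was not tested.

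TSPAN4, a tetraspanin of migrasomes, and CD82, known as a metastasis suppressor, showed small differences. The TSPAN4 signal intensity at 209263_x_at was 435 in control cells and 378 after knock-down, a log2 ratio of -0.20. At 209264_s_at it was 329 and 392, a ratio of 0.25. These ratios have opposite signs and both are smaller than the SD of 0.41, so that no direction can be given for TSPAN4. CD82 had 282 in control cells and 210 after knock-down, a log2 ratio of -0.42 that is about as large as the SD of 0.41.

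CD9 and CD151, which binds laminin receptors of the integrin family, did not reach a mean signal of 200 and were left out of counts. CD9 had signal intensities of 5.23 in control cells and 6.54 after knock-down, with a log2 ratio of 0.32 (SD 1.19). CD151 had 35.1 and 86.9, with a log2 ratio of 1.31 (SD 1.19). At such signals the SD between probe sets is wider than most ratios, and for CD9 the sign turned under quantile normalization of the arrays and under subtraction of a lowess fit on signal.

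Among the 10 tetraspanin probe sets that reached a mean signal of 200, 2 were lower by 2-fold or more after knock-down, those of TSPAN13 and TSPAN31, and none was at least 2-fold higher. For comparison, 7.39% of all 10184 probe sets at this signal were that much lower and 4.61% that much higher. Counted by gene at 1.5-fold, 1 of the 7 measured tetraspanins was higher (CD63) and 1 was lower (TSPAN13), against 15.6% and 19.0% of the 6301 measured genes. The median log2 ratio of the 7 genes was -0.20, and that of all measured genes was 0.01. With log2 ratios centred on the median, or with a gene's measured probe sets averaged, 2 of the 7 were lower. Of all measured genes 24.1% were lower when centred and 18.3% when averaged. With averaging the median of the 7 was -0.42. Because the genes had been selected on these ratios, nothing can be read from the counts.

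**Figure D2:**
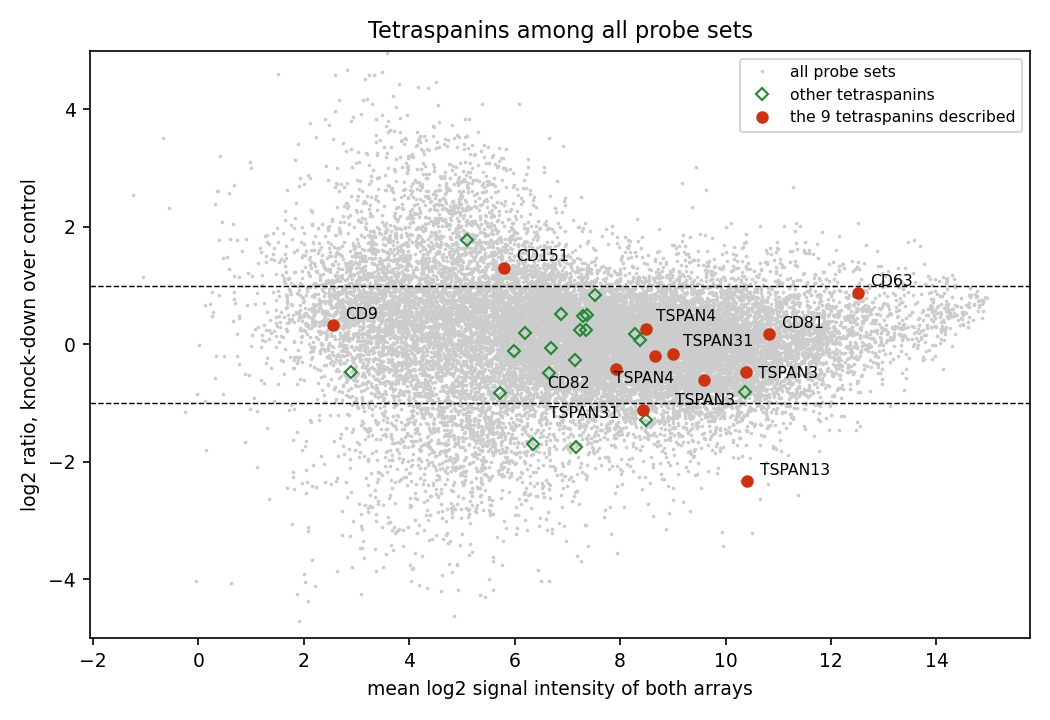
Log2 ratio, knock-down over control (vertical), by mean log2 signal of both arrays (horizontal) for 22215 probe sets (grey), with the 12 probe sets of the 9 tetraspanins (red circles) and 20 probe sets of other tetraspanins (green diamonds). A 2-fold difference is dashed, and 16 probe sets fall beyond the vertical range. TSPAN13 lies at -2.33 where the grey points are narrow, and CD151 at 1.31 where they are wide.

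The log2 ratios of the tetraspanins were compared under 4 other scales of the same signals, namely quantile normalization, centring on the median of all probe sets, subtraction of a lowess fit, and addition of 32 to each signal, together with the ratios as deposited. TSPAN13 ranged from -2.45 to -2.27 and CD63 from 0.66 to 0.88. TSPAN3 ranged from -0.59 to -0.39 at 200972_at and from -0.74 to -0.53 at 200973_s_at, and CD82 from -0.55 to -0.38. CD81 ranged from 0.06 to 0.23. TSPAN31 ranged from -1.24 to -1.02 at 203227_s_at and from -0.29 to -0.10 at 203226_s_at. No sign turned on these 4 scales for the 10 probe sets that reached a mean signal of 200, and no ratio moved by as much as its SD. Centring lowered the median of all measured genes from 0.01 to -0.12. Relative to GAPDH that median was -0.97, and 7 of the 10 probe sets were then at least 2-fold lower. The share of the whole array at 2-fold was not computed on that scale. At 1.5-fold, 75.4% of the 6301 genes counted as lower there, so that nothing about tetraspanins can be read from the 7.

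**Figure D3:**
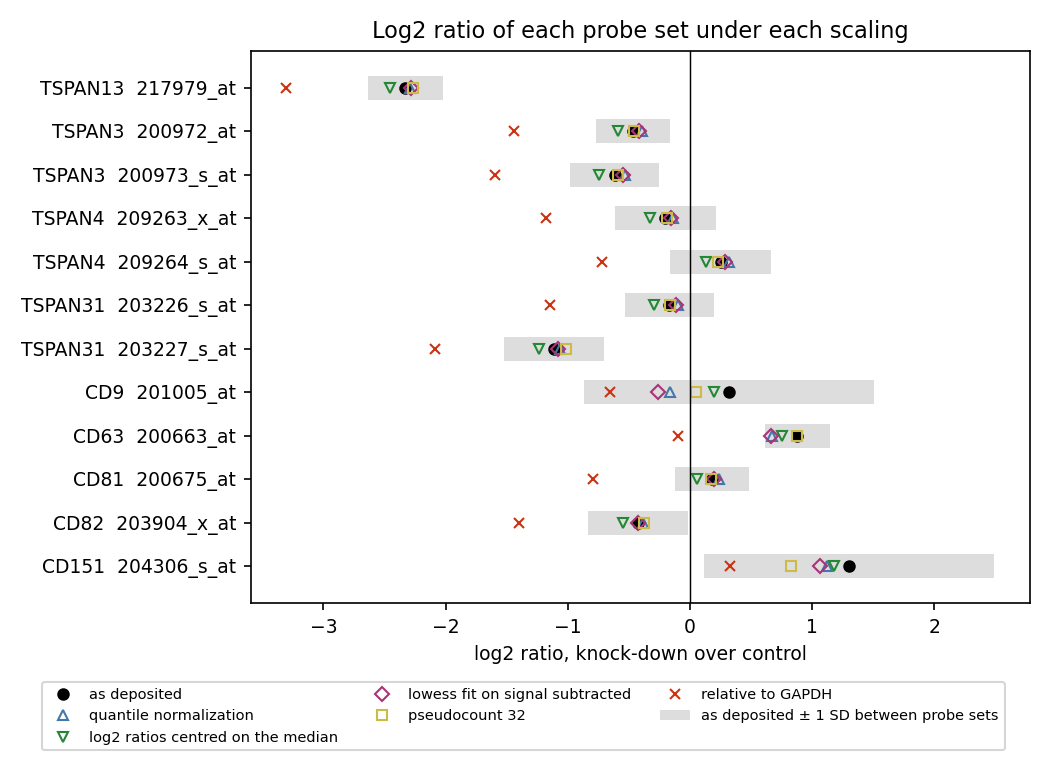
Log2 ratio (knock-down over control) of each tetraspanin probe set as deposited (black circles, grey bar 1 SD between probe sets to each side) and under the other scales (coloured symbols). For probe sets other than those of CD9 and CD151 the symbols lie within the grey bars except the red crosses, which are ratios relative to GAPDH and put CD63 at -0.095.

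The other members of the family were examined with the same measure. Of 24 further tetraspanin genes 17 had a probe set, and 4 of these reached a mean signal of 200. TSPAN7, a tetraspanin best known from neurons, had a signal of 560 in control and 229 in knock-down cells, a log2 ratio of -1.29 (SD 0.41). TSPAN8 gave 1748 and 998, a ratio of -0.81 (SD 0.30). Both ratios were larger than 1 SD and had the sign of TSPAN13, though the ratio of TSPAN13 was lower still. The leukocyte tetraspanin CD53 gave 326 in control and 341 in knock-down cells, a log2 ratio of 0.07, and CD37 gave 294 and 330, a ratio of 0.17, each smaller than the SD of 0.41. Of these 4 genes 2 were thus at least 1.5-fold lower and none was higher, against 19.0% and 15.6% of all measured genes, with a median log2 ratio of -0.37. TSPAN8 was the only one of them to reach a mean signal of 500, and with no filter 5 of 17 genes were lower and 1 was higher, with a median of 0.07, while 18.7% of all genes were then lower and 24.6% higher.

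Proteins that associate with tetraspanins were listed next, and 8 of 16 listed genes were measured. Of these, 3 were at least 1.5-fold lower, 1 was higher and 4 lay between, against 19.0% lower and 15.6% higher among all measured genes, and the median log2 ratio was -0.45. The laminin-binding integrin chain ITGA6 gave 339 in control and 173 in knock-down cells, a log2 ratio of -0.97 (SD 0.41). The lipid kinase PI4K2A gave 515 and 288, a ratio of -0.84 (SD 0.41). The integrin chain ITGB1 gave 1739 and 1133, a ratio of -0.62 (SD 0.30). These 3 genes were the lower ones, and in each the ratio exceeded the SD. Each call rests on 1 probe set, since the others of these genes had mean signals under 200. Ratios at those others were -0.15 for ITGA6, 0.66 and -1.84 for PI4K2A, and from -0.02 to 3.45 for ITGB1. The interferon-induced CD81 partner IFITM1 had a log2 ratio of -0.54, the complement regulator CD46 one of -0.36, and the integrin chain ITGA4 one of -0.01. ITGA4 had ratios of 0.33 and 0.56 at its other probe sets. HLA-DRA, the MHC class II chain found in tetraspanin platforms of B cells, was higher, with 11926 in control cells and 18759 after knock-down at the probe set used (log2 ratio 0.65, SD 0.26) and with a ratio of 0.22 at its other probe set. No gene of the list was 1.5-fold higher after quantile normalization, centring or subtraction of the lowess fit, relative to GAPDH, without _s_at and _x_at probe sets, or with a gene's measured probe sets averaged, so that this call was lost there. When _s_at and _x_at probe sets were left out, 3 genes of this list were left, with a median of -0.01.

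ADAM10, a membrane protease whose transport is controlled by a subgroup of tetraspanins, gave -0.31, 0.49 and -0.05 as the log2 ratios of its 3 probe sets. The first belongs to the probe set of highest mean signal, with 1617 in control cells and 1307 after knock-down. Its signs were thus mixed. The tetraspanins of that subgroup with a probe set, TSPAN5, TSPAN14 and TSPAN15, all had mean signals under 200.

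Genes of multivesicular endosomes and exosome release, the compartment in which CD63 is found, were examined last. Of 22 listed genes 18 were measured, and 13 of these had a negative log2 ratio, as did 3125 of all 6301 measured genes. Of the 18, 4 were at least 1.5-fold lower, 1 was higher and 13 lay between, with a median log2 ratio of -0.33. Among all measured genes 19.0% were lower and 15.6% higher, so that the lower share was near the background and the higher share below it. With centring, or with a gene's measured probe sets averaged, 6 of the 18 were lower and 1 was higher. Of all measured genes 24.1% were lower when centred and 18.3% when averaged. Without _s_at and _x_at probe sets 4 of 10 were lower and none was higher, against 21.3% and 14.5%. Syntenin (SDCBP), an adaptor that binds CD63, had 2572 in control cells and 1227 after knock-down, a log2 ratio of -1.07 (SD 0.30), opposite in sign to CD63. The lysosomal membrane protein LAMP2 had -1.05 at the probe set used, where the signal was 1560 and 752, and ratios of -0.68 and -1.58 at its other probe sets. The ESCRT subunit TSG101 (-0.65) and the GTPase ARF6 (-0.61, with -0.94 and -1.34 at other probe sets) were the other lower genes. This set depends on the probe set used. LAMP1 fell just short of 1.5-fold with -0.58, and had -0.73 and -0.92 at its other measured probe sets. RAB27A had -0.33 at the probe set used and -0.36, -1.23 and -0.87 at the others. At the other end STAM2, an ESCRT protein, had 261 in control cells and 535 after knock-down, a log2 ratio of 1.03 (SD 0.41). Its second probe set at this signal had 0.40. RAB11A (0.40), STAM (0.36) and HGS (0.31), which act in endosomal sorting and recycling, were next and were not 1.5-fold higher. Of 10 genes of this list with several measured probe sets, all measured probe sets were lower in 7 and higher in 3, and in none did they differ in sign.

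**Figure D4:**
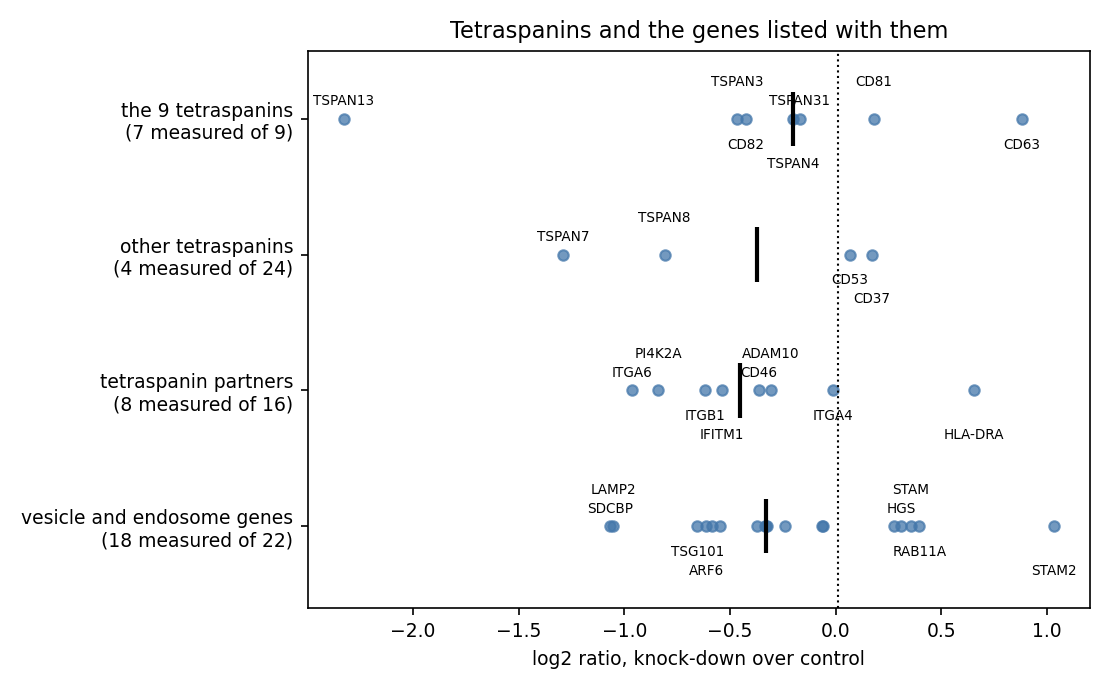
Log2 ratio, knock-down over control, for measured genes in 4 lists (1 array per condition), each point being a gene at its probe set of highest mean signal. Black bars are list medians (-0.20, -0.37, -0.45 and -0.33 from top to bottom), the dotted line is the median of all measured genes (0.01), and the height of the gene names has no meaning. TSPAN13 lies farthest to the left, and CD63, HLA-DRA and STAM2 lie farthest to the right in their lists.

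The genes whose signals on both arrays were most like those of TSPAN13 were found by the distance between pairs of log2 signals, over the 2 arrays and 6301 genes. GADD45A was nearest, with 2794 in control cells and 558 after knock-down, a log2 ratio of -2.32 and a distance of 0.17. It was followed by SGPL1 (-1.93, distance 0.29), GTPBP2 (-1.90, 0.33), IL18R1 (-1.93, 0.37) and SREK1 (-1.71, 0.44). Since a probe set's brightness enters this distance, it describes the arrays and not a relation between the genes.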

How the data were processed

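RNA from 2 cultures of L-428 cells was measured on 1 array each. The deposited signal intensities are linear MAS5 values (Expression Console), scaled by the authors to a target intensity of 500, so that a difference in total signal between arrays cannot be seen. Detection calls and Cel files were not used here. Arrays had a median signal of 161 (control) and 164 (knock-down). Probe sets were named by the platform annotation where it gave 1 symbol, and all 9 symbols were the same in RefSeq (GRCh38.p14).

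Log2 ratios were taken without further normalization, and counts used a mean signal of at least 200. The SD between probe sets came from pairs of the same gene within bands of signal. A gene took its probe set of highest mean signal. Genes named were all 9 members, measured or leukocyte tetraspanins, the 4 highest and 4 lowest of the other lists and the 5 nearest to TSPAN13. LAMP1 and RAB27A were added after their values were seen. The members and lists were chosen with earlier results of these data known. Alternatives were other scales, filters, size rules and probe set choices. The log2 ratios as deposited and on the 4 other scales, and the SD between probe sets, were tested on simulated data. The GAPDH scale, ranks, counts, distances and motif search were not. Python 3.11.15, numpy 2.4.6, pandas 2.3.3, statsmodels 0.14.6 (lowess, span 0.3) and matplotlib 3.10.9 were used.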

Additional observations from a re-analysis of the deposited data

How the results depend on the processing

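Of 116 values under alternatives, 93 moved by less than the SD between probe sets, or by at most 1.5 times for counts. Relative to GAPDH, which by construction subtracts 0.98, the log2 ratio was -3.30 for TSPAN13, -1.44 and -1.59 for TSPAN3, -1.18 and -0.72 for TSPAN4, -1.15 and -2.09 for TSPAN31, -0.80 for CD81 and -1.40 for CD82. CD63 had -0.095, which is smaller than its SD of 0.26. On this scale 7 member probe sets were at least 2-fold lower, and the medians were -1.18 for the members, -1.35 for other tetraspanins, -1.43 for partners and -1.30 for vesicle genes. The 6301 genes together had a median of -0.97 there, and 75.4% counted as lower at 1.5-fold. The count of 7 thus says nothing about tetraspanins. The count of 2 lower probe sets became 1 at a mean signal of at least 500, at 3-fold, and without the types _s_at and _x_at, and the count of 0 higher became 1 with no filter (CD151) and at 1.5-fold (CD63). At 1.5-fold the lower count was 3. By construction these settings count fewer probe sets, more of them (no filter) or another size. The share of all probe sets was not computed under them, so that these counts have no background beside them. The median of other tetraspanins was 0.066 with no filter and -0.81 at a mean signal of at least 500, where 1 gene was left. That of partners was -0.013 without the types _s_at and _x_at, with 3 genes left. Centring raised the share of measured genes at least 1.5-fold lower from 19.0% to 24.1% and lowered the higher share from 15.6% to 11.0%. No paired analysis was possible because only a single array was hybridised for either group. Low signal over background limits CD9, CD151 and most other tetraspanins.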

Other observations

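Among tetraspanins with a mean signal under 200, chosen here after their values were seen, TSPAN15 had a signal intensity of 263 in control cells and 78.0 after knock-down, with a log2 ratio of -1.75 (SD of probe sets at this signal 0.73). TSPAN2 had 147 and 45.2, a ratio of -1.70 (SD 1.19). Both lay on the side of TSPAN13 by more than 1 SD. UPK1B lay on the other side by more than 1 SD at 1 probe set. There it had 137 in control cells and 245 after knock-down, a log2 ratio of 0.84 (SD 0.73). At its other probe set the ratio was -0.12 (SD 1.19). The probe sets of TSPAN9 gave 0.24 and 1.77, at mean signals of 164 and 41.0. These signals are too low for a direction to be read with confidence.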
